A study of Mus musculus with 9 samples.

Results

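Spleen RNA of BWF1 males was set against that of BALB/c females, the pair of groups that the series title does not name as lupus-prone. The 6 samples compared are of 9 in the series, 3 in each group, chosen by the group in their labels, and the description covers the 7407 autosomal genes that were counted well enough to test, of 21965 gene identifiers in the table. BWF1 mice are the F1 cross of NZB and NZW, whose females develop a lupus-like disease and stand here as the lupus-prone group, and BALB/c is an unrelated inbred strain. All mice were 16 weeks old and no treatment, transgene or deletion is given in the labels. The groups compared differ in strain and in sex, so for autosomal genes the effects of strain and of sex cannot be told apart from these 6 libraries, and genes of the X and Y chromosomes were left out. Values in BWF1 females, which share the strain of the males and the sex of the BALB/c mice but are lupus-prone, are given beside the results.

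The labels disagree on the cells. The series title and design speak of splenocytes, whereas the sample labels describe macrophages, digested out with collagenase and sorted on CD11b and F4/80. The markers did not show macrophages alone. The B cell gene Cd79a stood at 834 to 1206 CPM in BWF1 males and 1049 to 1228 in BALB/c females, and Adgre1, which encodes F4/80, at 28.5 to 52.7 against 13.4 to 21.99. The gene of CD11b itself, Itgam, had 37 counts over the males and 22 over the BALB/c females and did not pass the filter. T cell, natural killer cell, neutrophil, plasma cell and red cell genes were all counted, and the libraries are called spleen libraries below. CPM here are counts per 1000000 of the tested autosomal counts, without Lars2, after scaling by trimmed means (TMM). Values of single libraries are listed in the order of replicates 1 to 3, BWF1 males first, and a bracketed value after them is the log2 fold change of BWF1 males over BALB/c females.

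The spleen joins a blood filter to a lymphoid organ. Its red pulp holds macrophages that clear old red cells, and in mice also a site of red cell production, while its white pulp holds B cell follicles and T cell zones bordered by marginal zone B cells. Immediate early genes, heat shock genes and targets of the transcription factor NF-kB can change within minutes to hours of a stimulus. In bulk libraries, fewer cells of a type and less RNA per cell cannot be told apart.

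Depth was low and uneven. Autosomal counts without Lars2 ran from 221687 to 1996744 in BWF1 males and from 420267 to 624233 in BALB/c females, and BWF1 male 3 held 76.4% of the scaled male counts. A gene with 3 counts stood at 1.58 to 14.9 CPM in the males and 5.02 to 7.53 in BALB/c females. Lars2, a mitochondrial leucyl-tRNA synthetase gene left out of the scaling, took 52.4% to 76.6% of the gene counts in males and 42.3% to 56.1% in BALB/c females (exact two-sided permutation p = 0.2). The share of alignments falling in genes was lower in every male library, 1.76% ± 0.323 (SD, n = 3) against 2.56% ± 0.369 (exact permutation p = 0.1, the smallest that 3 against 3 allows), and its part in the results was not tested. File names carried the tag ORIG for all BALB/c libraries and BWF1 male 2, and RL for BWF1 males 1 and 3, with no meaning stated. Y-linked genes had 520 counts over the males and 0 over the females.

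Between the groups, 457 genes passed the test (edgeR's quasi-likelihood F test, Benjamini-Hochberg adjusted p under 0.05), which is 6.17% of those tested. Of them 197 were higher in BWF1 males (2.66%) and 260 lower (3.51%). Among called genes 79 were at least 2-fold higher and 144 at least 2-fold lower, and 22 and 34 at least 4-fold. The median log2 fold change over all tested genes was −0.0032. The 3 male values all lay on one side of the 3 BALB/c values for 1722 genes, 23.2% of those tested, among them 416 of the called. An unadjusted p under 0.05 was found for 1460 genes. The count fell to 168 without BWF1 male 3 and to 220 without BALB/c female 2, with 153 and 209 of the 457 still called. With the file name tag as a term it was 182. Among ORIG libraries alone, BWF1 male 2 and BWF1 female 2 are each the lone library of their group. The spread there comes from the 3 BALB/c libraries only, and what is given below for ORIG libraries rests on it. No called gene changed direction in any of the alternatives run.

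**Figure D1:**
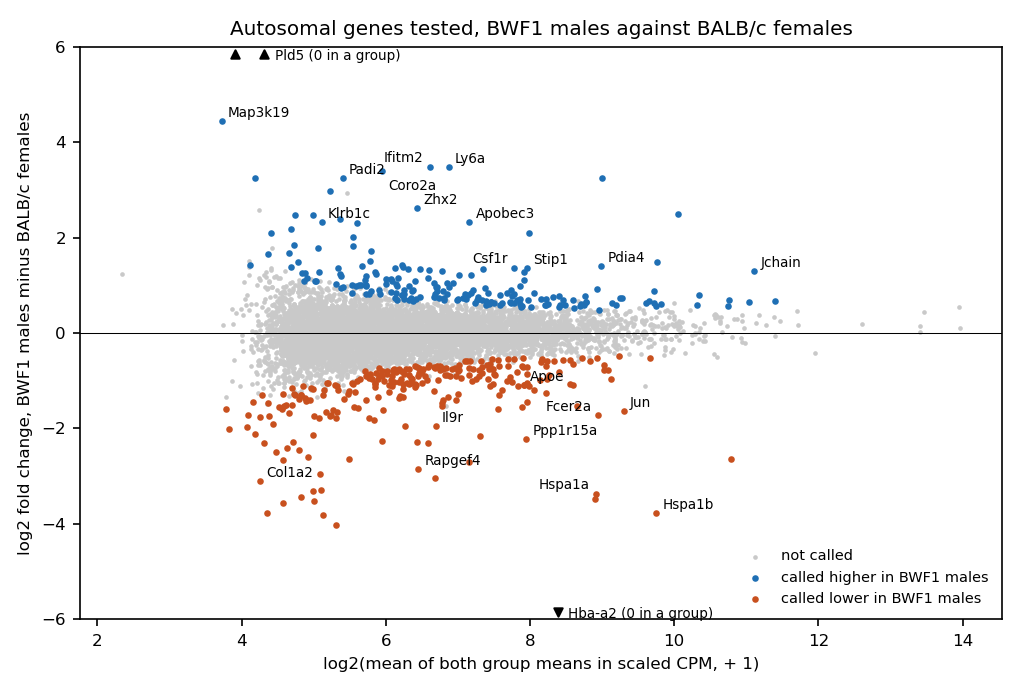
Each point is a tested autosomal gene, with the log2 of its mean level in both groups (scaled CPM + 1) on the horizontal axis and the log2 fold change of BWF1 males minus BALB/c females on the vertical axis. Blue points are the 197 genes called higher and orange points the 260 called lower in BWF1 males, and triangles at the edges mark genes with 0 counts in a whole group, whose fitted fold changes lie beyond the axis.

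The inducible Hsp70 genes separated the groups most clearly by p. Hspa1b (Ensembl ENSMUSG00000090877, mm10 chromosome 17, 34956436 to 34959238, minus strand) and its neighbour Hspa1a (ENSMUSG00000091971, chromosome 17, 34969190 to 34972156, minus strand) encode the stress-induced 70 kDa chaperone that refolds denatured proteins. Their starts carry nearly the same sequence, identical at 247 of the 250 bases before the start, and the genes themselves are near copies, so reads may be divided between them and each value is uncertain by that. The stretches below show those 250 bases in the RefSeq reference (GRCm38.p6, 5′ to 3′ along each gene), with the match to the core of the heat shock element in capitals, and beside them the start of Fkbp4, a co-chaperone gene that moved the other way. The element was searched as GAANNTTC or TTCNNGAA, which read the same on both strands and can overlap each other. Of 6 heat shock genes called higher that have such a window, Fkbp4 alone held a match, and Chordc1, Hsp90b1, Hspa5, P4ha1 and Stip1 held none. The reference is of neither strain compared.
Hspa1b (chr17:34959239-34959488, minus strand): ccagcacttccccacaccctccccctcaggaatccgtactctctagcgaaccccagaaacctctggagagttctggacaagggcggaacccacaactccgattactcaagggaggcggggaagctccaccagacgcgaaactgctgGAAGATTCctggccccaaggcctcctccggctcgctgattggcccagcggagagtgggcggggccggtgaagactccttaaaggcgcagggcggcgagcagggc
Hspa1a (chr17:34972157-34972406, minus strand): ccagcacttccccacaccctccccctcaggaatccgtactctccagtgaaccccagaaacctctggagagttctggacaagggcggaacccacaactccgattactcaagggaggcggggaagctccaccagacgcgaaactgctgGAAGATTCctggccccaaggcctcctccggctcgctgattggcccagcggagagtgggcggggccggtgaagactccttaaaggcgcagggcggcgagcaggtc
Fkbp4 (chr6:128438657-128438906, minus strand): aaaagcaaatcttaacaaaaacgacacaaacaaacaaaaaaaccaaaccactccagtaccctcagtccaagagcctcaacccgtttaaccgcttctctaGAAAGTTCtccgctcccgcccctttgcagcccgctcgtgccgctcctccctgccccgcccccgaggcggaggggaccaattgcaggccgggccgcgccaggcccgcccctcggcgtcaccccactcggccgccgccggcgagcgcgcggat

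Hspa1b stood at 174, 106 and 100.1 CPM in males 1 to 3 of BWF1 and at 896, 2140.3 and 1758 in BALB/c females 1 to 3. The groups lay far apart, and within BALB/c female 1 was the lowest. The log2 fold change was −3.78 (SE 0.25; edgeR adjusted p = 3.59e-12), a 13.7-fold lower level in BWF1 males. Hspa1a stood at 144, 72.5 and 71.1 CPM in the males and 566, 1104 and 924 in BALB/c females, in the same order of libraries (−3.37, SE 0.23; edgeR adjusted p = 8.05e-12). BWF1 females lay between the groups for Hspa1b, at 209 to 274 CPM. For Hspa1a they stood at 136 to 196 CPM and overlapped the males, from whom they did not pass apart (edgeR adjusted p = 0.057). For both genes they were also lower than BALB/c females (adjusted p = 1.28e-08 and 3.1e-08). Both genes were called in every alternative run, meaning here and below each alternative in which the gene passed the filter.

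The heat shock genes as a list split. Of 24 tested genes on that list (28 listed, 4 below the filter), 7 were called higher and 3 lower. That is 41.7% called, beside 6.17% of all tested genes, with a median log2 fold change of 0.39. Dnajb1, an Hsp40 co-chaperone of Hsp70, fell with it, from 438 to 607 CPM in BALB/c females to 189 to 323 in BWF1 males (−1.06; edgeR adjusted p = 7.46e-05). Of those called higher, Stip1, which bridges Hsp70 and Hsp90, stood at 417, 238 and 418 CPM in BWF1 males against 148, 136 and 133 in BALB/c females, with no overlap and with BWF1 male 2 the lowest male (1.37, SE 0.19; edgeR adjusted p = 7e-06). Fkbp4, an Hsp90-bound prolyl isomerase, stood at 412, 249 and 359.9 against 110.0, 144 and 163 CPM, again with BWF1 male 2 the lowest male (1.29, SE 0.18; adjusted p = 1.13e-05). Hsp90ab1, the constitutive cytosolic Hsp90, and Chordc1, an Hsp90-binding protein, were higher by 0.67 and 1.06 on the log2 scale (adjusted p = 0.0111 and 0.00241). Ahsa1, an activator of Hsp90, and Hsp90aa1, the inducible cytosolic Hsp90, did not pass (adjusted p = 0.0793 and 0.952). The other 3 called higher, Hspa5, Hsp90b1 and P4ha1, encode proteins of the endoplasmic reticulum. Without BWF1 male 3 the list gave 4 genes higher, with the file name tag as a term 3, and among ORIG libraries alone 0, where the adjusted p of Stip1 was 0.083 and of Fkbp4 0.052. A heat shock element core lay in the 250 bases before the start of 1 of 6 list members called higher, 2 of 3 called lower and 5 of 10 not called, for the 19 with a RefSeq window, beside 11.8% of all tested genes with a window.

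Every called immediate early gene was lower in BWF1 males. Of 33 tested (37 listed), 14 were called lower, 0 higher and 19 did not pass. That is 42.4% called, beside 6.17% of all tested genes. The median log2 fold change was −0.56, and 30 of the 33 had a negative value. Jun, a subunit of the AP-1 transcription factor, stood at 367, 295 and 274 CPM in BWF1 males and 577, 1282 and 974 in BALB/c females (−1.64, SE 0.20; edgeR adjusted p = 9.73e-07). Rhob, a small GTPase induced within minutes of stimulation, stood at 164, 129 and 121 against 258, 408 and 407 CPM (−1.44, SE 0.19; adjusted p = 3.51e-06). In both genes the groups did not overlap, BALB/c female 1 was the lowest BALB/c library and BWF1 male 1 the highest male. Dusp1, a phosphatase that switches off MAP kinases, stood at 151 to 238 CPM in the males and 346 to 507 in BALB/c females (−1.27; adjusted p = 2.09e-05). Ppp1r15a (GADD34), which restores translation after stress and was not on the list, was lower by 2.22 on the log2 scale (139, 88.0 and 68.0 against 315, 489 and 379 CPM; adjusted p = 3.99e-09). These 4 genes were called in every alternative run, and in BWF1 females they stood at 314 to 327, 99.2 to 157, 83.6 to 155 and 89.9 to 101 CPM, also apart from BALB/c females (adjusted p from 8.03e-07 for Ppp1r15a to 5.39e-05 for Rhob). Cd69, Per1, Klf6, Zfp36, Dusp2, Gadd45b, Junb, Egr1, Mafk, Ier5 and Nr4a1 made up the rest of the 14 with Jun, Rhob and Dusp1. Fos, the partner of Jun, stood at 295 to 377 against 397 to 576 CPM and did not pass the test (adjusted p = 0.0917). The count was 7 by DESeq2, 6 without BWF1 male 3, 8 without BALB/c female 2, 9 without BALB/c female 3, 6 with the file name tag as a term and 4 among ORIG libraries alone.

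NF-kB targets and cytokines went the same way, with 13 of 28 tested called lower and 0 higher (37 listed). The share called was 46.4%, beside 6.17% of all tested genes, and the median log2 fold change was −0.66. Tnfaip3 (A20), a deubiquitinase that restrains NF-kB, stood at 134, 135 and 149 CPM in BWF1 males and 291, 293 and 279 in BALB/c females, 2 tight and separate groups (−1.02, SE 0.16; edgeR adjusted p = 5.72e-05). Nfkbiz, a nuclear IkB protein that drives secondary cytokine genes, stood at 59.6, 64.7 and 58.5 against 137, 157 and 126 CPM (−1.23, SE 0.20; adjusted p = 9.53e-05). The cytokine genes Tnf (24.8, 23.3 and 14.8 against 42.1, 72.0 and 47.7 CPM; −1.61, adjusted p = 0.00194) and Il1b (−1.06, adjusted p = 0.00571) were among the 13. Tnf was low in all groups, and its call ended without BWF1 male 3 (adjusted p = 0.18), without BALB/c female 2 (0.084), with the tag as a term (0.12) and among ORIG libraries (0.34). For Il1b, BWF1 male 1 at 223 CPM lay within the BALB/c range of 211 to 246 while the other males stood at 75.1 and 88.0. Cxcl9, Ccrl2, Ptgs2, Tnfaip2, Nfkbid, Cd40, Relb, Birc3 and Nfkbia were the other 9. By DESeq2 the list gave 5, without BWF1 male 3 it gave 6, without BALB/c female 2 it gave 7, and 6 with the tag as a term and among ORIG libraries alone. In BWF1 females Tnfaip3 stood at 112 to 167 CPM (−0.99 against BALB/c; adjusted p = 0.000872).

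**Figure D2:**
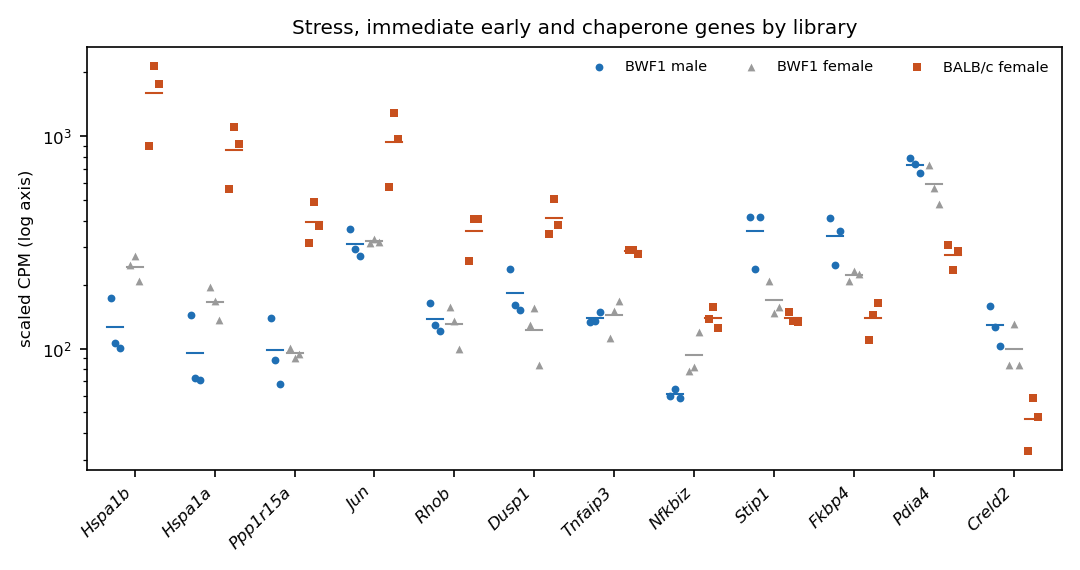
Scaled CPM (log axis) of 12 stress, immediate early and chaperone genes in each library, with blue circles for BWF1 males, grey triangles for BWF1 females, orange squares for BALB/c females and a short line at each group mean. From Hspa1b to Nfkbiz the BALB/c squares lie above the blue circles, and from Stip1 to Creld2 they lie below.

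Glucocorticoid-responsive genes and clock genes share members with those lists. Their shares called were 40% and 18.2%, in that order, beside 6.17% of all tested genes. Of 15 tested glucocorticoid-responsive genes 5 were called lower, Dusp1, Per1, Sgk1, Zfp36 and Nfkbia, and 1 higher, Ddit4. The other 9 did not pass, and Ddit4 was lost without BWF1 male 1, BWF1 male 3, BALB/c female 1 or BALB/c female 2 (adjusted p from 0.084 to 0.29). Of 11 tested clock genes, Per1 and Bhlhe40 were called lower, both of which also respond to stimuli outside the clock. Per1 stood at 89.3, 104 and 97.5 CPM in BWF1 males and 174, 238 and 173 in BALB/c females (−1.005, SE 0.19; edgeR adjusted p = 0.000827), and among ORIG libraries alone its adjusted p was 0.095. Bhlhe40 was lost without BWF1 male 2, BWF1 male 3, BALB/c female 2 or BALB/c female 3 (0.059 to 0.22). The glucocorticoid list gave 3 lower without BWF1 male 2, BWF1 male 3 or BALB/c female 3, by DESeq2 and with the tag as a term, and 1 among ORIG libraries.

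Most tested red cell genes were lower in BWF1 males. Of 23 tested erythroid genes (29 listed, 5 below the filter), 19 were called lower and 0 higher. That is 82.6% called, beside 6.17% of all tested genes. The median log2 fold change was −2.30 beside −0.0032 over all genes. The 28 counted members summed to 4522, 973 and 1095 CPM in males 1 to 3 of BWF1 and 4986, 13483 and 5634 in the BALB/c libraries, so BWF1 male 1 came close to the lowest BALB/c library (exact permutation p = 0.1). BWF1 females spread from 2726 to 8920.2 CPM. Rhd, which encodes the Rh blood group protein, stood at 9.93, 5.18 and 5.80 CPM in the males and 49.5, 90.4 and 40.2 in BALB/c females (−3.29, SE 0.44; edgeR adjusted p = 5.3e-06). It was called in every alternative, and the groups did not overlap. Slc4a1, the band 3 anion exchanger, showed the spread of the list, at 303, 25.9 and 31.6 CPM in the males and 443, 1516 and 549.8 in BALB/c females (−3.49, SE 0.62; adjusted p = 0.000304), and was not called by DESeq2 (adjusted p = 0.26) or with robust dispersion (0.21). The list gave 6 lower by DESeq2 and without BWF1 male 3, 9 without BALB/c female 2, 7 where a mean of 50 counts was asked for and 4 with robust dispersion. With the erythroid genes left out of the scaling, 458 genes were called over the whole table.

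In BWF1 females Rhd stood at 5.60, 0 and 15.7 CPM, near the male level (edgeR adjusted p = 0.00131 against BALB/c). The beta globin genes Hbb-bs and Hbb-bt are near identical copies. Hbb-bs stood at 1276, 184 and 166 CPM in the males against 1792, 5012 and 2137, without overlap (−2.63; adjusted p = 0.00023). Hbb-bt stood at 159, 28.5 and 11.1 against 130.1, 393 and 123 CPM (−2.71; adjusted p = 0.000833), where BWF1 male 1 lay within the BALB/c range and the unweighted group means were 66.1 and 215. In BWF1 females Hbb-bt stood at 140.0 to 355 CPM and did not pass against BALB/c females (adjusted p = 0.988). Not a single read was assigned to the alpha globin gene Hba-a2 (mm10 chromosome 11, 32296489 to 32297298; ENSMUSG00000069917) in the 6 BWF1 libraries, against 174, 720 and 188 in BALB/c females 1 to 3. Set against a floor of 3 counts over the group, it was at least 581-fold lower in BWF1 males, and at least 318-fold without BALB/c female 2, although with robust dispersion its call ended (adjusted p = 0.18). Its near-identical copy Hba-a1 stood at 1320.3, 166 and 128 CPM in the males and 506, 1745 and 773 in BALB/c females, overlapping and not called (adjusted p = 0.183). How reads that fit both copies were counted is not given. Alignments marked as not unique made up 55.9% to 59.4% of all alignments in the males and 55.96% to 59.8% in BALB/c females.

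Most tested genes of cytotoxic lymphocytes were higher in BWF1 males. Of 12 tested (23 listed, 11 below the filter), 9 were called higher and 0 lower. That is 75% called, beside 6.17% of all tested genes, with a median log2 fold change of 0.89. The 23 listed genes summed to 1454, 1571 and 1658 CPM in the males, 929, 825 and 1012 in BALB/c females, with BWF1 females at 554 to 638. Klrb1c, which encodes the NK1.1 receptor of natural killer cells in strains that carry it, stood at 54.6, 57.0 and 56.9 CPM in the males and 14.7, 8.37 and 10.04 in BALB/c females (2.33, SE 0.34; edgeR adjusted p = 2.16e-05). Gzma, the granule protease granzyme A, stood at 273, 225 and 207 against 121, 68.6 and 80.3 CPM (1.33, SE 0.20; adjusted p = 2.7e-05). The 3 males agreed closely for both genes and lay above all BALB/c libraries, and both were called in every alternative. Prf1, the pore former perforin, stood at 129 to 171 against 66.9 to 90.4 CPM (1.05; adjusted p = 0.000797). Ncr1, set as a natural killer cell marker beside Klrb1c and Prf1, overlapped between the groups, at 29.8 to 64.7 against 31.8 to 58.6 CPM. Cd7, Nkg7, Klrk1, Il2rb and the transcription factors Eomes and Tbx21 were the other 6, at log2 fold changes from 0.72 to 1.16. Klrk1 was lost without BWF1 male 2, BWF1 male 3 or any BALB/c library (adjusted p from 0.067 to 0.38). The list gave 4 higher without BWF1 male 3, 5 without BALB/c female 1 or 2, 5 by DESeq2 and among ORIG libraries, and 3 with the tag as a term. BWF1 females lay below both groups for Gzma (52.2 to 61.6 CPM) and between them for Klrb1c (16.3 to 22.4 CPM). Against BALB/c females, neither passed the test there (adjusted p = 0.238 and 0.479).

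Called T cell genes were also higher. Of 24 tested, 6 were called higher (25%, beside 6.17% called of all tested genes), 0 lower and 18 did not pass. A positive log2 fold change was found for 23 (median 0.51). Cd8b1, the beta chain of the CD8 coreceptor, stood at 114, 153 and 184 CPM in BWF1 males and 58.6, 53.5 and 87.9 in BALB/c females, without overlap (1.31, SE 0.25; edgeR adjusted p = 0.000791). Its call ended without BWF1 male 3 (adjusted p = 0.056) and with the tag as a term (0.073). Il7r, the receptor for interleukin 7, stood at 179, 181 and 161 against 123, 66.9 and 103 CPM (0.82, SE 0.20; adjusted p = 0.0109), and was lost without BALB/c female 2 (0.14). Zap70, Cd247 and Bcl11b were also among the 6. Cd3e, a defining T cell marker, stood at 243 to 252 against 157 to 274 CPM and did not pass (adjusted p = 0.363). The list gave 2 higher without BWF1 male 3, 1 without BALB/c female 2, 1 by DESeq2 and 0 with the tag as a term. It summed to 3713 to 4277 CPM in the males, 2478 to 3299 in BALB/c females, with BWF1 females at 2317 to 2666.

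Of 15 tested plasma cell genes (18 listed), 5 were called higher in BWF1 males, 0 lower and 10 did not pass. The share called was 33.3%, beside 6.17% of all tested genes, with a median of 0.44 and 3 negative values. Jchain, which links the subunits of secreted IgM and IgA, stood at 4100.0, 2876 and 2424 CPM in BWF1 males and 1459, 1032 and 1321 in BALB/c females (1.29, SE 0.18; edgeR adjusted p = 1.43e-05). Creld2, an endoplasmic reticulum protein of secretory cells, stood at 159, 127 and 103 against 33.0, 58.6 and 47.7 CPM (1.35, SE 0.24; adjusted p = 0.000268). Neither gene's groups overlapped, BWF1 male 1 was highest in both, and both were called in every alternative. Xbp1, the transcription factor of secretory expansion, Sdc1 (CD138) and Mzb1 were the other 3. Of the 15 tested, 8 are also on other lists, and Creld2, Xbp1 and Mzb1 are counted again among the endoplasmic reticulum genes below. Prdm1, set as a plasma cell marker beside Jchain and Sdc1, overlapped between the groups, at 19.9 to 34.3 against 14.7 to 30.1 CPM. In BWF1 females Jchain stood at 757 to 1137 CPM, below the males (adjusted p = 7.37e-06), and did not pass against BALB/c females (0.363). Creld2 stood at 83.6 to 131 there and did pass against BALB/c females (0.0199). The count was 3 without BWF1 male 2 or BALB/c female 2, and 3 with the tag as a term and among ORIG libraries.

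Genes of B cell subsets split. Among 20 follicular and marginal zone genes 5 were lower and 3 higher (40% called, beside 6.17% of all tested genes). Fcer2a (CD23, ENSMUSG00000005540, chromosome 8, 3681737 to 3694175), the low-affinity IgE receptor that marks follicular B cells, stood at 174, 249 and 246 CPM in BWF1 males and 706, 728 and 839 in BALB/c females (−1.71, SE 0.16; edgeR adjusted p = 4.15e-09). Icosl, the ligand that B cells show to follicular helper T cells, stood at 124, 155 and 182 against 348, 366 and 334 CPM (−1.11, SE 0.16; adjusted p = 1.35e-05). The groups were well separated in both, both calls held in every alternative, and BWF1 females stood with the males, at 168 to 235 and 146 to 163 CPM (adjusted p = 1.49e-08 and 0.000119 against BALB/c females). Cd55, which protects cells from complement, stood at 89.3, 225 and 155 against 399, 363 and 354 CPM (−1.20; adjusted p = 6.38e-05), and among ORIG libraries its adjusted p was 0.13. Ccr7, a homing receptor, was lower by 0.58 on the log2 scale. Dtx1, a regulator of Notch signalling, was the clearest of the 3 higher, at 690.0, 774 and 843 against 354, 492 and 555 CPM (0.74; adjusted p = 0.00305), though without BWF1 male 3 its adjusted p was 0.052. The other 2 higher were Mzb1 and Plac8. The lower count was 3 without BWF1 male 1, BWF1 male 3, BALB/c female 1 or BALB/c female 3, and the higher count 1 without BALB/c female 1 or 2. Germinal centre genes gave 0 calls of 9 tested by edgeR, DESeq2 and limma-voom, with 1 gene at an unadjusted p under 0.05. Il9r, a cytokine receptor gene outside these lists, stood at 44.7, 28.5 and 46.9 against 159, 182 and 153 CPM (−1.96, SE 0.21; adjusted p = 5.61e-08).

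Some macrophage genes were higher in BWF1 males. Of 14 tested macrophage and gate genes 4 were called higher, 0 lower and 10 did not pass (median 0.55). Of 11 red pulp macrophage genes 5 were higher, 1 lower and 5 did not pass (median 0.77). The shares called were 28.6% and 54.55%, beside 6.17% of all tested genes. Csf1r, the receptor for the macrophage growth factor CSF1, stood at 377, 212 and 356 CPM in the males and 125, 134 and 103 in BALB/c females, with BWF1 male 2 the lowest male (1.37, SE 0.19; edgeR adjusted p = 1.06e-05). Sirpa, which reads the CD47 signal on other cells, stood at 238, 228 and 259.8 against 134, 137 and 151 CPM (0.81; adjusted p = 0.00172). Adgre1 and Ctsb were the other 2 of the first list. Cd163, the scavenger receptor for haemoglobin, stood at 44.7, 31.1 and 45.8 against 12.8, 8.37 and 5.02 CPM (2.18, SE 0.42; adjusted p = 0.000818). Mrc1, the mannose receptor, stood at 74.5, 95.8 and 88.5 against 42.1, 36.8 and 42.7 CPM (1.12; adjusted p = 0.00162), and Vcam1, Lrp1 and Axl were also higher. Ftl1, the ferritin light chain that stores iron, went the other way at 432, 368 and 397 against 575, 719.6 and 741 CPM (−0.77, SE 0.15; adjusted p = 0.000878), with BWF1 females at 417 to 459. Without BWF1 male 3 the first list gave 1 and the second 2 genes higher, and Sirpa, Cd163 and Lrp1 were lost (adjusted p = 0.059, 0.081 and 0.27). Among ORIG libraries alone both lists gave 0 higher. The first list summed to 2806 to 3554 CPM in the males and 2433 to 2606 in BALB/c females, and the second to 2301 to 3122 and 2534 to 3121, so the summed level of red pulp genes overlapped between the groups.

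Genes for clearing dead cells split. Of 22 tested, 6 were called higher and 4 lower (45.45% called, beside 6.17% of all tested genes). The 3 chains of C1q, which starts the classical complement pathway and is made by splenic macrophages, lie together on chromosome 4 and were all higher: C1qc stood at 84.4, 77.7 and 78.5 CPM in BWF1 males and 27.5, 31.8 and 22.6 in BALB/c females (1.504, SE 0.26; edgeR adjusted p = 0.000204), and C1qa at 129, 72.5 and 98.5 against 31.2, 33.5 and 50.2 (1.37; adjusted p = 0.000402). C1qb was higher by 1.41 (adjusted p = 0.0037). No male library fell within the BALB/c range for the 3 genes, C1qc was called in every alternative, and C1qa ended with the tag as a term (0.22) and among ORIG libraries (0.34). On the lower side, Mfge8, a bridge between dead cells and phagocytes, stood at 59.6, 31.1 and 66.4 against 139, 181 and 173 CPM (−1.53, SE 0.23; adjusted p = 2.54e-05). The nuclease Dnase2a, which digests engulfed DNA in lysosomes, stood at 29.8, 25.9 and 43.7 against 80.6, 82.0 and 77.8 CPM (−1.08; adjusted p = 0.00347), and the secreted nuclease Dnase1l3 at 94.3, 85.4 and 102 against 191, 167 and 131 (−0.78; adjusted p = 0.00907). Dnase1l3 lost its call without BWF1 male 3 or without BALB/c female 1 (0.057 each). Stab2 was the fourth. Apoe, which carries lipid out of macrophages, was also lower, at 184, 129 and 152 against 282, 315 and 379 CPM (−1.09, SE 0.16; adjusted p = 3.04e-05). BWF1 females stood with the males for Mfge8 (36.8 to 83.6 CPM) and Apoe (157 to 163), and with BALB/c females for C1qc (15.7 to 32.7). Without BWF1 male 3, or without BALB/c female 1, the list gave 2 lower, and with the tag as a term 1 higher and 2 lower.

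Other myeloid lists gave mixed or small counts. Beside 6.17% of all tested genes, 41.7% of conventional and 23.1% of plasmacytoid dendritic cell genes were called. For monocyte genes the share was 31.6% and for neutrophil genes 20%. Conventional dendritic cell genes gave 4 lower and 1 higher of 12 tested (median −0.54). Naaa, a lysosomal amidase high in these cells, led them at 94.3, 49.2 and 72.2 CPM in the males and 169, 134 and 108 in BALB/c females (−0.99; edgeR adjusted p = 0.00363). Without BWF1 male 3 the list gave 0 calls and the adjusted p of Naaa was 0.057, and without BALB/c female 1 it gave 2 lower. Monocyte genes gave 3 higher and 3 lower of 19, among them Ace at 39.7, 49.2 and 113 against 23.8, 20.1 and 27.6 CPM (1.83; adjusted p = 0.000251), where BWF1 male 3 is the highest library and the adjusted p without it was 0.30. Their 3 lower, Ms4a4c and Nr4a1 among them, gave way to 0 without BWF1 male 3 or BALB/c female 2 and to 1 without BWF1 male 1, BALB/c female 1 or BALB/c female 3, and their higher count was 1 without BALB/c female 2 and 5 without BWF1 female 3. Neutrophil genes gave 1 higher, Ltf, and 1 lower, Csf3r, of 10 tested, and their sum was 2169, 885 and 1249.5 CPM in the males against 1018 to 1316 in BALB/c females. Ltf was not called without BWF1 male 1, BALB/c female 2 or BALB/c female 3 (0.052 to 0.078), nor Csf3r without BALB/c female 2 (0.050), and 4 neutrophil genes were higher without BWF1 male 2 or BWF1 female 3. Plasmacytoid dendritic cell genes gave Ly6d higher and Irf7 and Pacsin1 lower of 13. Both lower calls ended without BWF1 male 3 (0.30 and 0.60), BALB/c female 2 or BALB/c female 3.

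**Figure D3:**
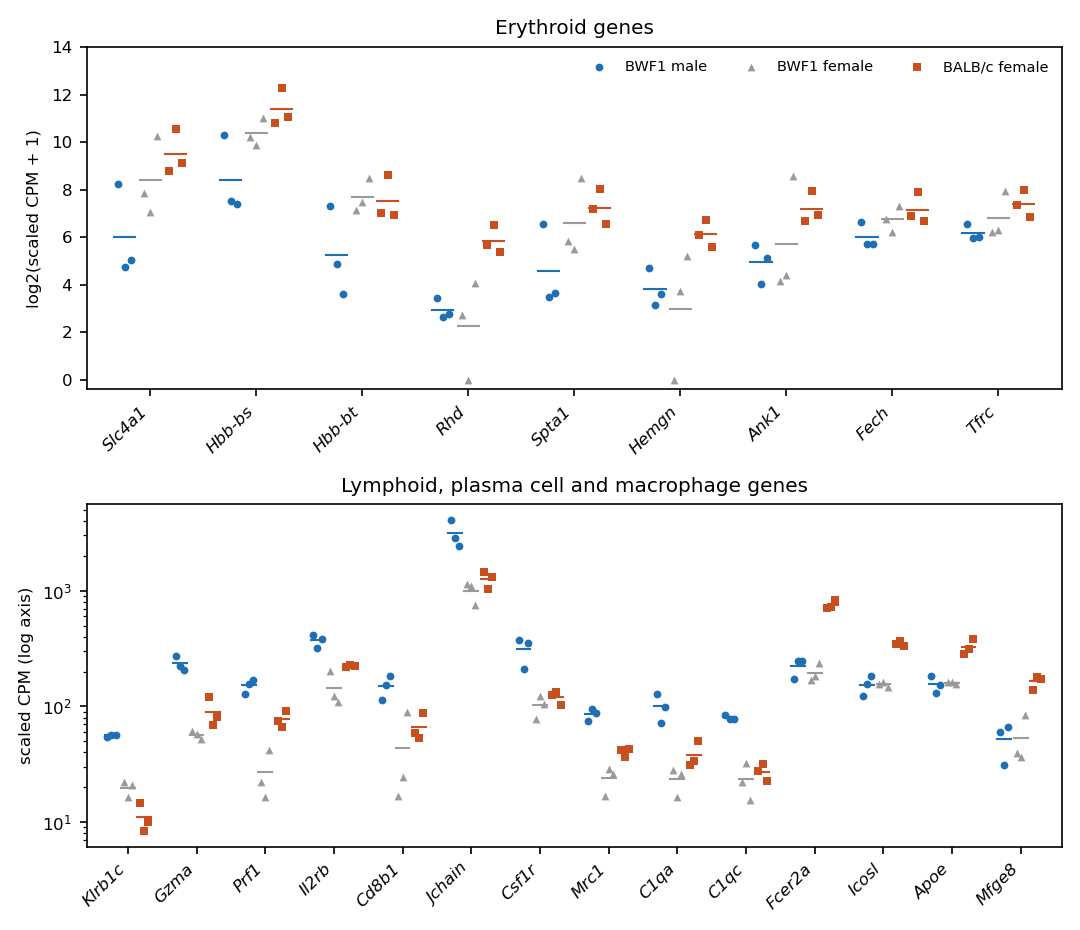
Upper panel, log2(scaled CPM + 1) of 9 erythroid genes, and lower panel, scaled CPM on a log axis of 14 lymphoid, plasma cell and macrophage genes, in each library of BWF1 males (blue circles), BWF1 females (grey triangles) and BALB/c females (orange squares), with short lines at group means. Erythroid points spread widely within groups, with BWF1 male 1 the highest male for Slc4a1, while Klrb1c, Gzma and C1qc form tight male groups above BALB/c.

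A set of genes was at or near 0 in BALB/c females and present in all BWF1 libraries. Pld5, a member of the phospholipase D family (ENSMUSG00000055214, chromosome 1, 175962306 to 176275312), had 0 counts in the 3 BALB/c libraries and 5, 18 and 80 in BWF1 males 1 to 3. Against a floor of 3 counts over the group it was at least 21.3-fold higher in the males. Map3k19, a kinase gene, had a single count over the BALB/c libraries, at 24.8, 33.7 and 13.2 CPM in the males against 0, 1.67 and 0 (4.45, SE 0.90; edgeR adjusted p = 0.00151). BWF1 females held both genes, at 16.3 to 57.4 and 5.60 to 36.6 CPM (adjusted p = 6.51e-05 and 0.00248 against BALB/c). Klra4 and St6galnac1, named after their values were seen because they also had 0 counts in BALB/c, lay below the filter with 42 and 33 counts over the males.

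Other genes were counted in BALB/c but several times higher in BWF1. Coro2a, an actin-binding coronin, stood at 114, 109 and 112 CPM in BWF1 males and 14.7, 8.37 and 7.53 in BALB/c females (3.40, SE 0.30; edgeR adjusted p = 1.63e-09). Padi2, an arginine deiminase, stood at 54.6, 69.9 and 96.4 against 5.50, 8.37 and 12.6 (3.25; adjusted p = 9.57e-08), and Zhx2, a transcriptional repressor, at 154, 137 and 148 against 7.33, 23.4 and 45.2 (2.61; adjusted p = 1.89e-07). Dhrs3, a retinal reductase, stood at 34.7, 64.7 and 56.9 against 11.0, 10.04 and 7.53 (2.48; adjusted p = 1.43e-05). Apobec3, a cytidine deaminase that restricts retroviruses (ENSMUSG00000009585, chromosome 15, 79891659 to 79915906), stood at 268, 225 and 217 CPM in the males and 62.3, 25.1 and 52.7 in BALB/c females (2.33, SE 0.23; adjusted p = 1.73e-08), a 5.03-fold higher level. It was the only call among 15 tested genes of retroviral restriction and silencing, a share of 6.67%, near the 6.17% called of all tested genes. None of these groups overlapped, all 5 genes were called in every alternative, and in BWF1 females they passed against BALB/c as well (adjusted p from 2.12e-08 for Apobec3 to 0.00459 for Dhrs3).

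Surface antigens of the Ly6 and Ifitm families differed strongly. Of 6 tested Ly6 genes 3 were higher and 1 lower (66.7% called, beside 6.17% of all tested genes). Ly6a, the stem cell antigen Sca-1, stood at 243, 225 and 175 CPM in BWF1 males and 21.99, 15.1 and 17.6 in BALB/c females (3.48, SE 0.29; edgeR adjusted p = 4.8e-10). Ly6d, a marker of B lineage commitment, stood at 397, 370.2 and 461 against 89.8, 105 and 95.4 (2.09; adjusted p = 7.05e-10), and Ly6e at 968, 1525 and 1339 against 392, 480.3 and 499.6 (1.49; adjusted p = 2.36e-07). Ly6c1 fell instead, at 9.93, 10.4 and 7.38 CPM in the males, 38.5, 40.2 and 45.2 in BALB/c females and 0 in each BWF1 female (−2.29; adjusted p = 0.000268), and its call ended without BWF1 male 3 (0.075). These 4 genes lie within chromosome 15, 74762056 to 75048830, and were all of the tested genes in that span. The span was drawn from the first to the last of them, so its ends are called genes by construction. Members of this family are close in sequence, so counts may be divided between copies. Ifitm2, which blocks virus entry at membranes, stood at 99.3, 256 and 177 against 16.5, 18.4 and 12.6 CPM (3.49, SE 0.29; adjusted p = 5.74e-10), and Ifitm1 at 44.7, 69.9 and 74.8 against 9.16, 1.67 and 17.6 (2.98; adjusted p = 5.3e-06). Their neighbour Ifitm3 did not pass, at 28.5 to 68.5 against 35.1 to 60.2 CPM (adjusted p = 0.937). Ly6a, Ly6d, Ly6e, Ifitm1 and Ifitm2 were called in every alternative. In BWF1 females they stood at 67.9 to 184, 167 to 297, 799 to 1042, 36.8 to 62.7 and 67.2 to 88.8 CPM, above all BALB/c libraries.

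Genes far lower in BWF1 males included Ffar1, Rapgef4 and Tceanc2. Ffar1, a receptor for long-chain fatty acids, stood at 0, 5.18 and 2.11 CPM in the males and 29.3, 40.2 and 40.2 in BALB/c females (−3.77, SE 0.53; edgeR adjusted p = 1.26e-05), and among ORIG libraries its adjusted p was 0.067. Rapgef4 (EPAC2), a cyclic AMP-activated exchange factor, stood at 4.96, 41.4 and 17.4 against 152, 151 and 153 CPM, nearly equal in the 3 BALB/c libraries (−2.86, SE 0.27; adjusted p = 8.78e-09). Tceanc2 stood at 0, 2.59 and 4.22 against 42.1, 58.6 and 30.1 CPM (−3.57; adjusted p = 3.66e-06). BWF1 females stood at 0 to 5.60, 24.5 to 61.6 and 11.2 to 16.3 CPM, where Tceanc2 did not pass against BALB/c females (adjusted p = 0.065) and the other 2 did (0.00215 and 0.000185). Plekha1 and Cadps2, among the largest changes upward by the naming rule, varied widely: Plekha1 stood at 2114, 181 and 482 CPM in the males against 60.5, 95.4 and 115, and Cadps2 at 3832, 883 and 705 against 47.6, 375 and 522. With robust dispersion neither was called (adjusted p = 0.12 and 0.37), and Cadps2 was lost without BWF1 male 1 (0.16) or BALB/c female 1 (0.058). How reads of each strain align to mm10, a C57BL/6 genome, was not tested for any of these genes.

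**Figure D4:**
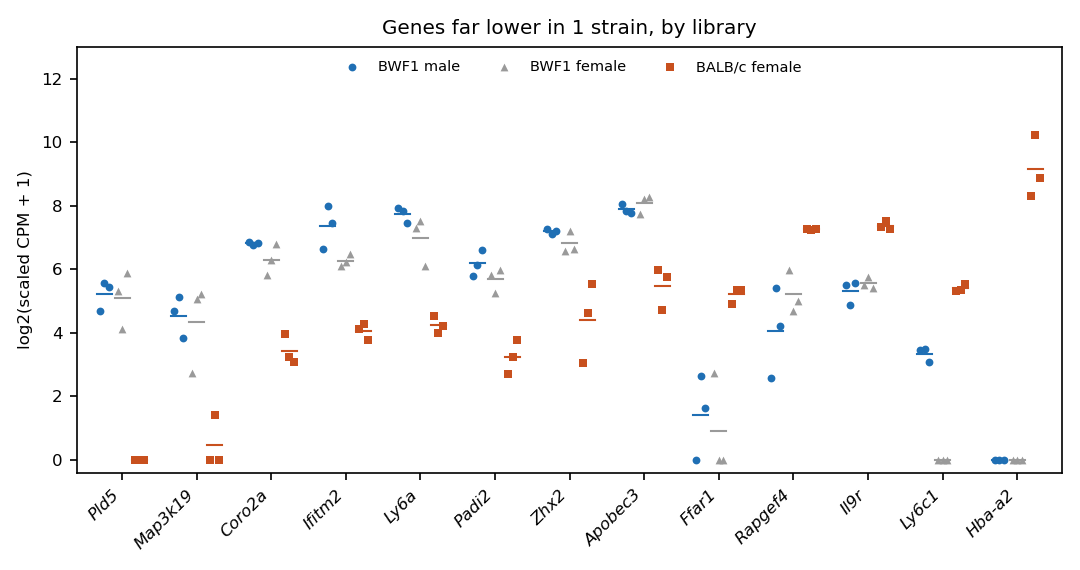
Log2(scaled CPM + 1) of 13 genes in each library of BWF1 males (blue circles), BWF1 females (grey triangles) and BALB/c females (orange squares), with short lines at group means. Pld5 is at 0 in all BALB/c libraries, Hba-a2 is at 0 in all BWF1 libraries, and Ly6c1 is at 0 in BWF1 females.

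Called genes lay on all autosomes, from 2.99% of tested genes on chromosome 16 to 8.95% on chromosome 12. Runs of at least 4 called genes, each start within 500 kb of the next, numbered 8. Each span was drawn from the first to the last called gene of its run. Counts called within a span are therefore raised by construction, and are no test of clustering beside the 6.17% called of all tested genes. The run with most genes lay in the major histocompatibility complex on chromosome 17, 34670535 to 35346762, where 6 of 25 tested genes were called: Tnxb, C4b, Hspa1b, Hspa1a and Tnf lower and H2-Q2 higher. H2-Q2, a class I gene with close relatives, stood at 94.3, 75.1 and 83.8 CPM in BWF1 males and 23.8, 28.4 and 22.6 in BALB/c females (1.71, SE 0.25; edgeR adjusted p = 2.14e-05) and was called in every alternative. C4b, complement component 4, stood at 9.93, 2.59 and 4.74 against 18.3, 18.4 and 25.1 CPM (−2.01; adjusted p = 0.0114), and the call ended without any of BWF1 male 2, BWF1 male 3 or a BALB/c library (adjusted p from 0.052 to 0.26). Tnxb ended without BWF1 male 3 (0.19). BWF1 females did not share the lower level of these 2 genes, at 28.0 to 57.4 CPM for C4b and 32.7 to 44.8 for Tnxb. There neither passed against BALB/c females (edgeR adjusted p = 0.198 and 0.443), and males were lower than BWF1 females (0.00087 and 0.00197). On chromosome 6, 128429735 to 129623864, Fkbp4, Klrb1c and Klrk1 were higher and Cd69 lower among 9 tested. On chromosome 11, 31872211 to 32297298, Cpeb4, Il9r and Hba-a2 were lower and Nsg2 higher among 7. On chromosome 8, 84841850 to 84978718, Calr was higher and Dnase2a, Prdx2 and Junb lower among 6. The remaining 4 runs lay on chromosomes 5, 7, 9 and 15. Nsg2 was lost without BWF1 male 3 (0.059), and Prdx2 and Junb without BWF1 male 2, BWF1 male 3 or BALB/c female 2. Each of the 8 held genes called higher and genes called lower.

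Several genes of protein folding in the endoplasmic reticulum were higher in BWF1 males. Of 49 tested, 12 were called higher, 1, Atf4, lower and 36 did not pass. The share called was 26.5%, beside 6.17% of all tested genes, and 37 had a positive log2 fold change (median 0.22). Pdia4, a disulfide isomerase, stood at 794, 743 and 671 CPM in BWF1 males and 308, 234 and 289 in BALB/c females (1.40, SE 0.16; edgeR adjusted p = 4.79e-07). Hsp90b1 (GRP94) and Hspa5 (BiP), the main chaperones of the compartment, were higher by 0.88 and 0.63 on the log2 scale (adjusted p = 0.00506 and 0.0344), and calreticulin, Calr, by 0.63 (0.00906). Hyou1, Sdf2l1, Sel1l, Dnajc3, Kdelr1, Xbp1, Creld2 and Mzb1 made up the rest. Pdia4 and Creld2 were called in every alternative, and in BWF1 females stood at 480.5 to 734 and 83.6 to 131 CPM, also above BALB/c (adjusted p = 0.000119 and 0.0199). Plasma cells are rich in these products, and the plasma cell list summed to 4617 to 7113 CPM in the males and 3066 to 3398 in BALB/c females. Its part in the result was not tested. Atf4 was lost without BWF1 male 2, BWF1 male 3, BWF1 female 1 or any BALB/c library (adjusted p from 0.053 to 0.30). On the higher side, Kdelr1 was lost without any of the libraries compared (edgeR adjusted p from 0.052 to 0.18). Mzb1 was lost without BWF1 male 1, BWF1 male 2, BALB/c female 1 or BALB/c female 2 (0.052 to 0.19), and Calr without BALB/c female 2 (0.064). The count of 12 was 5 without BALB/c female 2 and with the tag as a term, 6 by DESeq2 and 2 among ORIG libraries.

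The sequences before the start of 3 of these genes show the endoplasmic reticulum stress element, a motif bound in the response to unfolded protein. It was searched as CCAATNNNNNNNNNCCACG, and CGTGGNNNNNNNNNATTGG for the other strand, in 250 bases before each RefSeq start (GRCm38.p6), and matches are in capitals. A match lay before 5 of the 10 list members called higher that had a window, Calr, Creld2, Dnajc3, Hsp90b1 and Hspa5, and before 4 of the 25 not called, Canx, Derl3, Pdia6 and Syvn1. Over all windows 0.113% held it, and 13 of 5910 tested genes with a window did. Kdelr1, Pdia4, Sdf2l1, Sel1l and Xbp1 were called higher, had a window and held no match. The 3 genes shown are all from those with a match. Hsp90b1 holds 2 matches, 1 in each orientation. A match describes the letters and shows no binding.
Creld2 (chr15:88819396-88819645, plus strand): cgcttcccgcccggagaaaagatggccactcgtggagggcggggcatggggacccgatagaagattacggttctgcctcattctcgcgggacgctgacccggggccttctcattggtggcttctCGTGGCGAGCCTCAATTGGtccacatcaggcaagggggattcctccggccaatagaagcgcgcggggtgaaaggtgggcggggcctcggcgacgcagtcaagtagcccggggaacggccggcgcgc
Hsp90b1 (chr10:86705445-86705694, minus strand): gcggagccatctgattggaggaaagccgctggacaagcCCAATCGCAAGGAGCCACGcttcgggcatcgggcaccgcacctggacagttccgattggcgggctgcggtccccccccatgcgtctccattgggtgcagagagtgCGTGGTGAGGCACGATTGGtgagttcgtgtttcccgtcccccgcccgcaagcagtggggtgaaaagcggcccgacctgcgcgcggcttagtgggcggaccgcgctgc
Calr (chr8:84846932-84847181, minus strand): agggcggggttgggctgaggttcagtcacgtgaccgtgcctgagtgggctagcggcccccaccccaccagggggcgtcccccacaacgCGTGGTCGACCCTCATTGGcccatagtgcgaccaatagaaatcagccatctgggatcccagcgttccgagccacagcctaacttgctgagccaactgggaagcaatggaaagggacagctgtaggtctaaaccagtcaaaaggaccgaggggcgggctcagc

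Of 75 tested ribosomal protein genes, 13 were called higher in BWF1 males (17.3%, beside 2.66% called higher of all tested genes), 0 lower and 62 did not pass, and 72 had a positive log2 fold change (median 0.35). Rps2, a small subunit protein, stood at 650.2, 603 and 663 CPM in BWF1 males and 329.9, 306 and 374 in BALB/c females (0.93, SE 0.15; edgeR adjusted p = 6.01e-05), and in BWF1 females at 590.1 to 662. Rps14 stood at 2199, 1538 and 1215 against 902, 900.3 and 1017 (0.80; adjusted p = 0.00319), and Rplp0 at 2397, 1967 and 2048 against 1220.4, 1264 and 1484 (0.69; adjusted p = 0.00379). Male and BALB/c libraries did not overlap for these 3 genes, which have many processed pseudogenes that can take reads. The count was 7 without BWF1 male 1 or BALB/c female 1, 5 without BALB/c female 2, 21 without BWF1 female 3, 2 with the tag as a term and 2 among ORIG libraries, and 21 with robust dispersion. Translation factors gave 1 call of 46 (2.17%), Eef1g, higher at 625, 494 and 494 against 376, 298 and 341 CPM (0.65; adjusted p = 0.00712), which ended without BALB/c female 2 (0.083), while 3 were called without BWF1 female 3. Oxidative phosphorylation genes gave 0 calls of 64 by edgeR, DESeq2 and limma-voom, with 7 genes at an unadjusted p under 0.05.

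Of 67 tested splicing genes, 8 were called lower in BWF1 males (11.9%, beside 3.51% called lower of all tested genes), 0 higher and 59 did not pass. A negative log2 fold change was found for 40 and a positive one for 27 (median −0.12). Srsf5, a splicing factor of the SR family, stood at 179, 173 and 128 CPM in BWF1 males and 352, 305 and 306 in BALB/c females (−1.09, SE 0.17; edgeR adjusted p = 4.02e-05), with no overlap, and was called in every alternative. Hnrnpdl stood at 114, 116 and 105 against 284, 209 and 213 (−1.10; adjusted p = 0.000105). The kinases Clk1 and Clk4, Pnisr, Hnrnpd and Srsf6 were also among the 8. BWF1 females held Srsf5 at 291 to 368 CPM, apart from the males (adjusted p = 0.000374), and did not pass against BALB/c females (0.879). Without BWF1 male 3 the count was 2, and without BALB/c female 1 or 2 it was 5.

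Lysosomal genes gave 4 higher and 1 lower of 43, a share of 11.6% beside 6.17% over all tested genes. Acp5, the tartrate-resistant acid phosphatase of macrophages, stood at 298, 381 and 304 CPM in BWF1 males and 169, 127 and 161 in BALB/c females (1.11, SE 0.17; edgeR adjusted p = 2.69e-05) and was called in every alternative. Ctsd and Ctsb were also higher and Ppt1 the 1 lower. Leaving out any of BWF1 male 1, 2 or 3 or BALB/c female 1 or 2 gave 1 or 2 higher, and Ppt1 was lost without BWF1 male 3 (0.14).

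Some matrix genes were lower. Of 12 tested stromal and endothelial genes (28 listed, 15 below the filter), 5 were lower, 1 higher and 6 did not pass. That is 50% called, beside 6.17% of all tested genes. Col1a2, a chain of type I collagen, stood at 4.96, 0 and 4.22 CPM in BWF1 males and 34.8, 26.8 and 37.7 in BALB/c females (−3.11, SE 0.52; edgeR adjusted p = 0.000156). Its partner Col1a1 lay below the filter with 8 counts over the males and 39 over BALB/c females. Col4a1, of basement membranes, stood at 29.8, 15.5 and 16.9 against 47.6, 68.6 and 55.2 CPM (−1.66; adjusted p = 0.000457), and Col4a2, Sparc and Stab2 were also lower. Vwf, of endothelium and platelets, was higher (49.6, 31.1 and 31.1 against 7.33, 8.37 and 17.6 CPM; adjusted p = 0.00935), and its call ended without BWF1 male 3, BALB/c female 1 or BALB/c female 2 (0.072 to 0.093). BWF1 females stood with BALB/c females for Col1a2 (16.3 to 61.6 CPM) and Col4a1 (44.95 to 62.7). Col4a1 ended without BWF1 male 3 (0.063), where the list gave 3 lower. The list summed to 702 to 783 CPM in the males and 994 to 1079 in BALB/c females.

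Interferon and antigen presentation genes gave few calls. Type I interferon-stimulated genes gave 1 higher and 2 lower of 29 (median −0.072), at a share of 10.3% beside 6.17% over all genes. Rsad2, an antiviral enzyme, stood at 84.4, 10.4 and 11.1 CPM in the males and 67.8, 151 and 40.2 in BALB/c females, with BWF1 male 1 within the BALB/c range (−2.26; edgeR adjusted p = 0.00124). Irf7, a driver of interferon genes, stood at 24.8, 51.8 and 34.3 against 58.6, 80.3 and 80.3 (−0.97; adjusted p = 0.0188). Both calls ended without BWF1 male 3 (0.24 and 0.30) and without BALB/c female 2 (0.073 and 0.12), and 4 genes of the list were lower without BWF1 female 3. The 1 higher, Tor3a, ended without any of the 6 libraries compared (0.054 to 0.17). Class II presentation genes gave 0 calls of 15 by edgeR, where 9 had an unadjusted p under 0.05, DESeq2 called 1 higher and limma-voom 2 higher and 4 lower. H2-DMb2 had the lowest p (−0.43; adjusted p = 0.0681), and without BWF1 female 3 the list gave 1 higher and 1 lower. Class I genes gave H2-Q2 and Calr higher and H2-T22 lower of 27, the last at 94.3, 59.5 and 87.0 against 158, 141 and 148 CPM (−0.88; adjusted p = 0.00339). Interferon-gamma induced GTPases gave Gbp4 lower of 10, and the p200 family Ifi206 and Ifi209 higher of 7. The calls of Gbp4 and of both p200 genes were lost without BWF1 male 3 or BALB/c female 2.

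The remaining lists gave at most 5 calls each. Beside 6.17% of all tested genes, the share called was 16% for sensors and Toll-like receptors, 8.57% for cell division, 20.8% for chemokines and their receptors, 11.5% for cholesterol and lipid genes, 10.5% for glycolysis and 3.28% for histone modifiers, and the others hold 14 tested genes or fewer. Sensors and Toll-like receptors gave Tlr11, Irf7 and Tlr1 lower and Mavs higher of 25. Tlr11 stood at 0, 2.59 and 8.43 CPM in the males and 33.0, 28.4 and 40.2 in BALB/c females (−2.31; edgeR adjusted p = 0.00115). Mavs was lost without BWF1 male 3 (0.11), and the list gave 1 lower without BWF1 male 3 or any BALB/c library. Cell division genes gave Mki67 and Nusap1 lower and Mcm6 higher of 35, although 32 had a negative log2 fold change (median −0.33). Mki67 stood at 283, 202 and 264 against 407, 782 and 384 CPM (−1.09; adjusted p = 0.00162), a call lost without BALB/c female 2 (0.071). Leaving out BWF1 male 1 gave 5 division genes lower, leaving out BWF1 female 3 gave 4, and leaving out BWF1 male 3 gave 1. Chemokines and their receptors gave Ackr3 higher and 4 lower of 24. Ackr3, a scavenger receptor for CXCL12 that is found on marginal zone B cells, stood at 84.4, 95.8 and 62.7 against 14.7, 18.4 and 10.04 CPM (2.32, SE 0.31; adjusted p = 5.74e-06) and was called in every alternative. The lower count of that list was 7 without BWF1 male 1 or any BWF1 female library and 2 without BWF1 male 3 or BALB/c female 1. Cholesterol and lipid genes gave Scap and Lrp1 higher and Apoe lower of 26. SLAM receptors gave Slamf6 lower of 7, at 74.5, 153 and 111 against 279, 186 and 213 CPM (adjusted p = 0.00177), lost without BWF1 male 3 (0.061). BAFF receptors and costimulation genes gave Icosl and Cd40 lower of 14, Fc receptors Fcer2a lower of 9 and Gimap genes Gimap4 lower of 8. Glycolysis genes gave Egln1 higher and Pfkfb3 lower of 19, histone modifiers Setd1b and Kat2a higher of 61, platelet genes Vwf higher and Plek lower of 8, and mast cell genes Hdc lower of 2. Of these, Cd40 was lost without BWF1 male 3 (0.12), and Gimap4, Egln1, Pfkfb3, Kat2a, Plek and Hdc were each lost without at least 1 library.

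**Figure D5:**
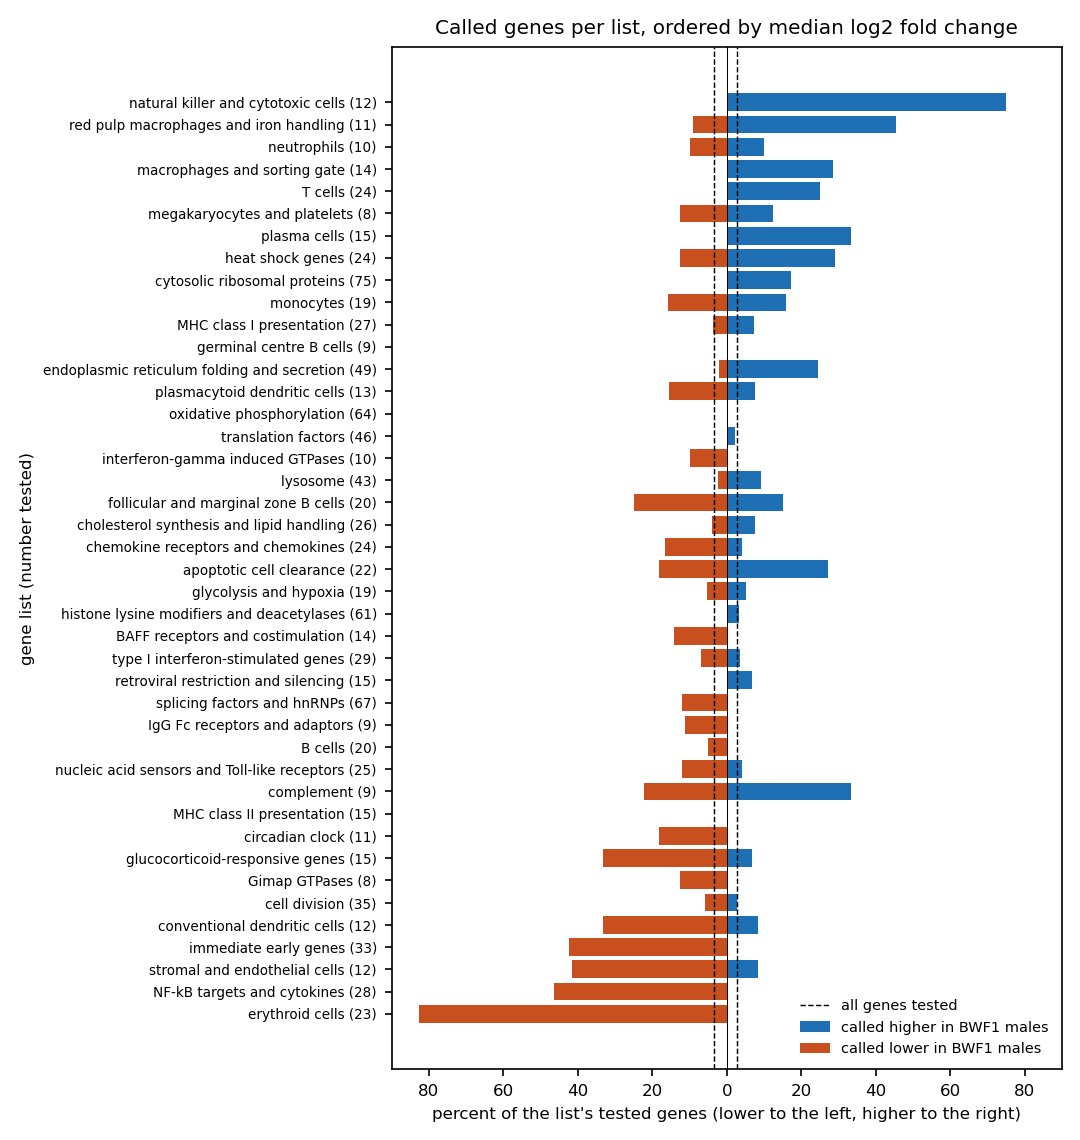
For each gene list with at least 8 tested genes (number in parentheses), the percent of its tested genes called higher in BWF1 males (blue, to the right) and lower (orange, to the left), ordered by the list's median log2 fold change. Dashed lines mark the 2.66% and 3.51% of all tested genes called higher and lower, and lists with 0 calls have no bar.

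Set beside the other contrasts, which share libraries with this comparison, 283 genes (3.82%) were called between BWF1 females and BALB/c females and 182 (2.46%) between BWF1 males and BWF1 females. Counts of the 3 comparisons rest on different depths, since the BWF1 female libraries held 183324 to 247008 autosomal counts. Of the genes described, Hspa1b, Jun, Tnfaip3, Fcer2a, Icosl, Apoe, Mfge8, Ly6a, Ifitm2, Apobec3, Coro2a, Zhx2 and Pdia4 had adjusted p under 0.05 in BWF1 females against BALB/c females too, with log2 fold changes of −2.71, −1.56, −0.99, −1.95, −1.17, −1.01, −1.65, 2.91, 2.22, 2.58, 2.94, 2.29 and 1.10 in that order. Gzma, Jchain, Csf1r, Mrc1, C1qc, Stip1, Srsf5 and Col1a2 did not, and between BWF1 males and BWF1 females they had log2 fold changes of 1.99, 1.65, 1.60, 1.84, 1.69, 1.10, −1.16 and −3.45 (adjusted p from 7.37e-06 for Jchain to 0.00448 for C1qc). Hspa1b and Ifitm2 passed that second test as well, at −1.07 and 1.27 in males over females (edgeR adjusted p = 0.032 and 0.00704). Other genes passed neither test, among them Cd163 (edgeR adjusted p = 0.25 and 0.351, in the same order of tests), Nfkbiz (0.158 and 0.205) and Rps14 (0.553 and 0.088). The genes listed are examples and do not sort the called genes into separate classes. Males and females of BWF1 differ in sex and in disease proneness, which cannot be told apart here either.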

How the data were processed

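Spleen RNA-seq libraries, 9 in all and 3 per group, were analysed. The authors' deposited values are raw read counts per gene, whole numbers in the layout of HTSeq, with 5 summary lines in each single-sample file that were kept out of library sizes and tests. The submitters' processing notes list STAR 2.6, FastQC 0.10.1 and mm10, with no role or order, and the annotation, strand setting and multimapping rule are not given in the sources used here. RNA was depleted of ribosomal RNA before library preparation, per the labels' protocols, and the kit named there is not stated to mark strand, so reads of overlapping antisense genes cannot be told apart. Reads shared by near-identical gene copies are uncertain in the same way. The series table and the single-sample files held the same counts (0 values differed).

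Of 21965 identifiers, 21939 matched GENCODE M21, and the 26 others, 948 X-linked and 183 Y-linked genes were left out. Lars2 was left out of library sizes and of the test. Genes passing edgeR's filterByExpr (minimum count 10), 7407 of 20807 autosomal genes, were scaled by TMM and tested with edgeR's quasi-likelihood F test (edgeR 4.0.16, R 4.3.3) in a single fit of all 9 libraries with a coefficient per group. P-values were adjusted by Benjamini-Hochberg over all tested genes and called under 0.05. The SE is the absolute log2 fold change over the square root of F. No source says that the libraries of a group come from separate mice, so p-values measure the spread between these libraries, which may be technical. That spread was estimated over all 9 libraries, BWF1 females among them. For each gene it was drawn toward the spread of other genes (24.91 prior degrees of freedom). Exact permutation tests over 3 against 3 libraries were two-sided. DESeq2 1.42.0 and limma-voom (limma 3.58.1) were alternatives, with other scalings, filters and sets of libraries. The replicate numbers did not pair the libraries.

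The comparison and all 47 gene lists were chosen with earlier results of these data known. Genes were named by a rule. Among called genes with the 3 libraries of a group all on one side of the other 3 and at least 20 CPM on average where higher, it takes the 12 changing most and the 6 with the lowest p in each direction. Overlap allowed, it adds for each list and direction the 2 called genes of lowest p (or the single lowest where none is called) and members of positional runs of at least 4 called genes, and it adds genes at 0 in a group. Predicted genes and antigen receptor segments were not named. Other list members are named to complete a count or to set a marker beside it, and were chosen after their values were seen. Some genes that the rule or a list count would name are not reported here.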

Additional observations from a re-analysis of the deposited data

How the results depend on the processing

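Depth limits the lower end: 3 counts were worth up to 14.9 CPM in BWF1 male 1, and 13400 autosomal genes were not tested. Of 457 genes called between BWF1 males and BALB/c females (197 higher, 260 lower), DESeq2 called 193 (96 and 97), a mean of at least 50 counts left 226 (97 and 129), the file name tag as a term 182 (55 and 127), ORIG libraries alone 150 (56 and 94) and a test against a 1.5-fold change 103 (38 and 65). Without a count filter 673 were called, 307 of them higher. Leaving out 1 library gave 168 to 602 calls, 87 to 278 higher and 81 to 324 lower, lowest in all 3 counts without BWF1 male 3. The stricter filter also tested fewer genes, and some settings held fewer libraries. The causes of the changed counts were not tested.

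For BWF1 females against BALB/c females (283 calls) the same settings gave 165 by DESeq2, 157 with the mean of at least 50, 158 with the tag, 123 among ORIG libraries, 61 against a 1.5-fold change and 180 to 333 leaving out 1 library. For BWF1 males against BWF1 females (182 calls) they gave 106 by DESeq2, 298 without a filter, 12 among ORIG libraries, 28 against a 1.5-fold change and 41 to 213 leaving out 1 library. With the replicate number as a block, 355 genes were called between BWF1 males and BALB/c females and 116 between BWF1 males and females. Libraries with the same number did not deviate together (correlations −0.09, −0.08 and 0.02) and did not each correlate best with their own number, so the pairing was not used.

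Of 133 called genes that the rule named, 39 were called in all of the 24 alternatives that tested them, and 0 of the 457 calls changed direction. Summed marker levels, BWF1 male minus BALB/c, changed sign when taken as the median log2(CPM + 1) of the detected members for B cells (−0.31), red pulp macrophages (0.30), monocytes (−0.13), neutrophils (−0.049), plasmacytoid dendritic cells (−0.094) and platelets (0.75). Leaving out 1 library, the summed difference ran from −241 to 185 CPM for red pulp macrophages and from −133 to 509 for neutrophils.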
